A study of Mus musculus with 2 samples.

Results

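Long stretches of unmethylated CpG were examined in the dentate gyrus of adult mice, the part of the hippocampus where granule neurons lie. A run was defined as at least 8 consecutive listed CpG sites, each with under 10% methylated reads, with neighbours at most 1000 bases apart. Sites of 20 to 100 reads on the autosomes of replicate 2 were used. Of 1116 such runs, 47 spanned at least 2000 bases and are called long runs here, 763 spanned under 1000 bases and are called short runs, and 306 lay between these. The runs were chosen by their CpG methylation in replicate 2. CpG levels below are therefore descriptions with no test, and CHG and CHH (H is A, C or T) are the readouts that the choice did not use.

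The series holds whole-genome bisulfite sequencing of 1 group, WT, with 2 libraries from male C57Black6 mice aged 8 to 10 weeks, whose dentate gyri were dissected on both sides. No treatment or mutation is named in the labels, and the number of animals behind each library is not given in the sources used here. Bisulfite turns unmethylated cytosine into a base read as thymine, so methylation is the share of reads that still show cytosine, averaged over all cells of the tissue, and hydroxymethylcytosine is counted with methylcytosine. Replicate 2 listed 2870859 autosomal CpG sites of 20 to 100 reads. Replicate 1 listed 7415 autosomal CpG, 36912 CHG and 114041 CHH sites, and 0 of them lay inside a long run, so the runs have no check in a second library. All levels below are from replicate 2.

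Most CpG sites of mammalian DNA are methylated, and short CpG-rich stretches at gene starts, the CpG islands, are the best known exception. Unmethylated stretches that run on for kilobases are known around genes of developmental regulators such as the Hox clusters, where they often coincide with Polycomb-bound chromatin. Neurons also carry methylation outside CpG, laid down mainly by the methyltransferase DNMT3A and found mostly at CA dinucleotides, and the CHG and CHH tables read part of it.

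Stretches of 4 gene starts are shown so that a reader can see how CpG sites are spaced inside a long run and which of them the table lists. They are the named genes whose start lay inside a long run and whose promoter was placed by at least 14 listed cytosines, less Txndc16, whose window overlaps that of Gpr137c. Each is 200 bases of RefSeq sequence (GRCm38.p6) next to the gene's start, written on the plus strand, the strand that was measured. Positions are those of mm9. Capitals mark the CpG cytosines that were listed, and a CpG in lower case had no listed value.
Bdnf, chr2:109532983-109533182, ending at 1 of its starts: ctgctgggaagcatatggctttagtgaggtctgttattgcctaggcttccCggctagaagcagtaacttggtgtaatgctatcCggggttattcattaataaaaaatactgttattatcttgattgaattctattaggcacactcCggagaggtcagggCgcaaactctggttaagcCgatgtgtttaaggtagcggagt
H3c3, chr13:23837390-23837589, beginning next to its start on the minus strand: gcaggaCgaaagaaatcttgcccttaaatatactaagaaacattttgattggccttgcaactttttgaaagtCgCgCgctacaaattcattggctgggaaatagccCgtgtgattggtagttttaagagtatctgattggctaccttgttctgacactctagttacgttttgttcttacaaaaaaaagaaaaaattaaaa
Gpr137c, chr14:45839191-45839390, ending at its start: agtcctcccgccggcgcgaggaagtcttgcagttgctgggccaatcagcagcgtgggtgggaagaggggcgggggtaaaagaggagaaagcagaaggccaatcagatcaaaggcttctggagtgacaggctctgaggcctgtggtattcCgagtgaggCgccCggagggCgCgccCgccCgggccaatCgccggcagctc
Robo2, chr16:74412070-74412269, beginning next to its start on the minus strand: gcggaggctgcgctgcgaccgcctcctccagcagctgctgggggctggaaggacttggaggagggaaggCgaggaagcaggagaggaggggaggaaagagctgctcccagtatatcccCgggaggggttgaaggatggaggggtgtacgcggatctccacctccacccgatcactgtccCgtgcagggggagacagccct

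In these stretches 0 of 125 CpG reads were methylated at Bdnf, 0 of 151 at H3c3, 0 of 190 at Gpr137c and 0 of 68 at Robo2. CHG reads were methylated in 1 of 228 at Bdnf, 0 of 65 at H3c3, 0 of 230 at Gpr137c and 0 of 168 at Robo2. The listed CpG were 5 of 6 in the Bdnf stretch, 5 of 6 in that of H3c3, 8 of 15 in that of Gpr137c and 3 of 10 in that of Robo2. A run is therefore a series of listed sites, with unlisted CpG between them.

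The long runs spanned 2002 to 3911 bases, first to last CpG, with a median of 2389, and covered 117.7 kb in all. They held 684 listed CpG, 8 to 31 per run with a median of 13. Their listed CpG were sparse, with a median of 4.96 per kb against 23.9 in short runs, a contrast that the limits on span and gap partly fix. The 3 runs just inside the limit spanned 2002 (chromosome 4, from 64784364), 2003 (chromosome 17, from 35087927) and 2018 bases (chromosome 8, from 93478967). The 3 just outside spanned 1977 (chromosome 19, from 45298550), 1976 (chromosome 1, from 72918018) and 1972 bases (chromosome 7, from 57164118). CHG levels were 0.541%, 1.60% and 1.51% in the former and 0.251%, 0% and 1.67% in the latter. The methylated reads behind them were 3 of 555, 8 of 499 and 7 of 465, and 1 of 399, 0 of 165 and 4 of 239. Counts this small cannot show whether the limit of 2000 bases marks a break.

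**Figure D1:**
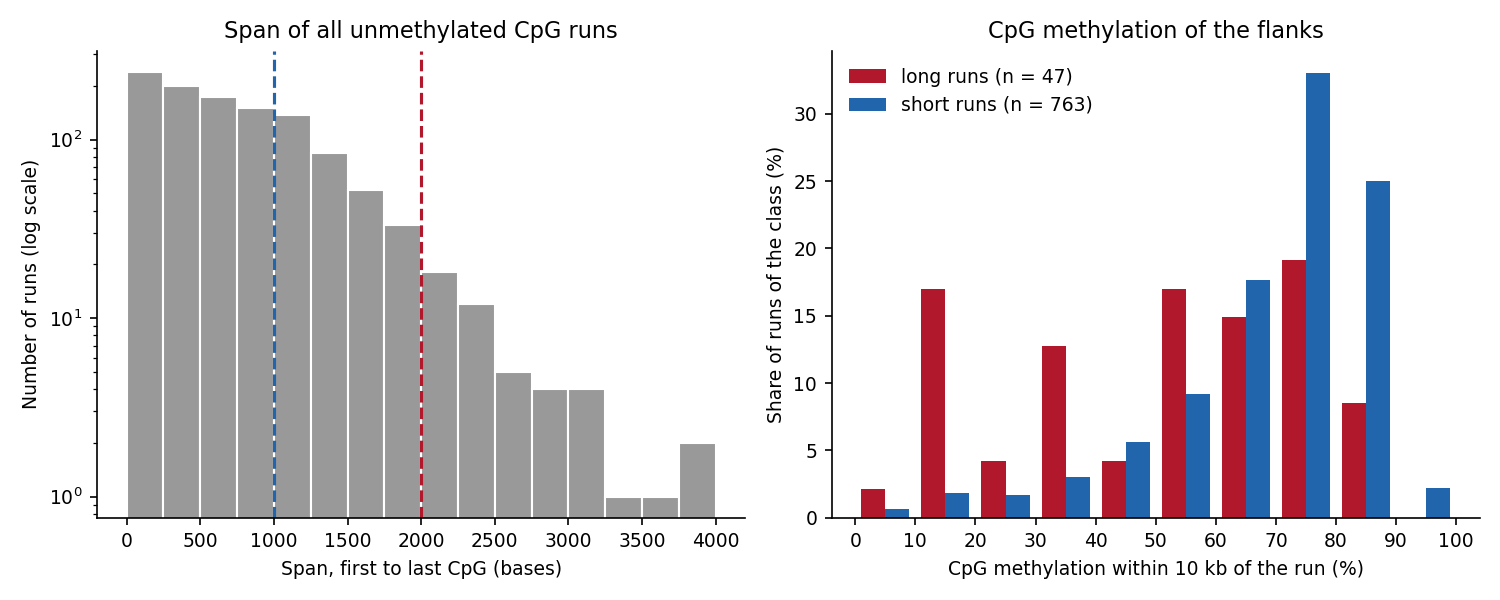
Left, the number of runs (log scale) by span in bases for all 1116 unmethylated CpG runs, with dashed lines at 1000 and 2000 bases. Right, the share of long runs (red, n = 47) and short runs (blue, n = 763) by the CpG methylation of the 10 kb on both sides. Counts fall with span with no separate group of long runs, and 40.4% of long runs against 12.8% of short runs had flanks under 50%.

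The long runs were spread unevenly over the genome. Chromosome 13 held 9 of them (19.1%), against 35 of the short runs (4.59%) and 5.17% of the listed CpG. Chromosome 2 held 6 and chromosome 3 held 5, and there were 0 on chromosomes 5, 10 and 19. When runs within 100 kb were joined, the 47 made 42 loci, of which 3 held more than 1 long run. Another run of any span lay within 10 kb of 11 long runs (23.4%) and of 47 short runs (6.16%).

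The mm9 annotation was not used here. Genes were placed by matching the contexts of listed cytosines to RefSeq promoter sequences, which places only part of the genes. A gene is thus the nearest one placed, not always the nearest in the genome. In all, 152 promoters of 145 genes were placed within 500 kb of 28 long runs, and 8 long runs held 13 gene starts. The promoters at these 13 starts held 1 to 28 CpG in 300 bases, with a median of 13. The median over all 32851 promoters of the table was 7, and 37.9% of them held at least 13. That contrast is partly fixed, since a run needs at least 8 listed CpG and a placed promoter needs listed cytosines.

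The longest run (chr2:109531841-109535751) held a pair of starts of Bdnf, the gene for brain-derived neurotrophic factor, a growth factor whose transcripts begin at several promoters. It spanned 3911 bases with 22 CpG, at which 6 of 493 reads were methylated (1.22%). CHG reads were methylated in 3 of 1065 (0.282%), against 0.596% in the 10 kb on both sides. The difference did not pass the test (two-sided Fisher's exact test, p = 0.253, Benjamini-Hochberg adjusted p = 0.843). CpG methylation in its flanks was 61.5%.

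The second longest (chr13:83877420-83881207) spanned 3788 bases, with Mef2c, a transcription factor gene, the nearest gene placed, its start 214766 bases to the left. CHG reads there were methylated in 7 of 1353 (0.517%) against 0.813% in the flanks (Fisher p = 0.336). Its flanks were themselves low in CpG methylation, at 17.1%. These 2 were the only long runs with at least 1000 CHG reads, and their intervals overlapped.

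The third (chr1:64165252-64168802, 3551 bases) held the starts of Klf7, a zinc finger transcription factor of the nervous system, and of the predicted gene Gm35880. It had 0 methylated CHG reads of 638, against 0.610% in its flanks, and 5 methylated of 635 CHH reads (0.787%), of which 4 fell on 1 site.

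Of the next 7 by length, those on chromosome 11 (from 96184127, 3414 bases), chromosome 3 (from 45181390, 3235 bases), chromosome 7 (from 56889715, 3208 bases) and chromosome 12 (from 50499889, 3103 bases) had no gene placed within 500 kb. Their CHG levels were 0.744%, 0.679%, 0.199% and 0.496%, beside flanks of 0.725%, 1.82%, 0.387% and 0.842%. The run on chromosome 3 from 93247650 (3187 bases) lay between Flg, the gene of the skin protein filaggrin, and the predicted gene Gm40093, 170183 and 150589 bases away. It had 1 methylated CHG read of 429. The run on chromosome 13 from 21259069 (2811 bases) lay between the olfactory receptor gene Olfr1368 and Trim27, 9920 bases from the start of Trim27, and had 0 methylated of 508 CpG reads and 2 of 716 CHG reads. The run on chromosome 15 from 102764480 (2790 bases) had 0 of 358 CHG reads methylated. Over the 10 longest together CHG was at 0.357% (95% interval 0.229% to 0.531%), and over the other 37 at 0.368% (0.285% to 0.467%), so these groups by span did not differ beyond counting error.

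The HoxD cluster, whose genes pattern the body axis and limbs, held 3 long runs between 74517795 and 74575038 on chromosome 2. The first ended 134 bases before the start of Hoxd11, the second lay between Hoxd11 and Hoxd3, and the third lay 12614 bases beyond the start of Hoxd4. CpG methylation in their flanks was 13.6%, 13.4% and 15.4%, among the lowest of the long runs. CHG reads inside were methylated in 1 of 375, 4 of 580 and 0 of 404. Together that was 0.368% (0.120% to 0.856%) inside against 0.448% (0.317% to 0.615%) in the flanks, a difference within counting error. These flanks were summed over the runs, so sites between the first and second counted for both, and the flank interval is too narrow.

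In and near the main histone gene cluster of chromosome 13, 4 long runs lay between 23527843 and 23839236, grouped by position. The third held the start of H4c8, a histone H4 gene, and of the predicted gene Gm11335. The fourth held those of H3c3 and H2bc3, genes of histones H3 and H2B that face away from each other. The first and second had no gene start placed inside them. The histone gene placed nearest to the first was H4c8, 92309 bases to its right, so whether that run belongs to the cluster was not determined. CHG was at 0.457% (0.237% to 0.797%) inside and 0.403% (0.310% to 0.515%) in the flanks, with the inside below the flank in 1 of the 4. The CpG flanks, at 50.6%, 72.5%, 50.6% and 60.6%, were far above those at HoxD.

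The other gene starts placed inside long runs were those of Gpr137c, with Txndc16 facing the other way, of Robo2, a receptor for the axon guidance ligand Slit, of Spata5, and of the predicted gene Gm46405. The run of Gpr137c and Txndc16 (chr14:45838356-45841123) had 0 methylated of 436 CHG reads and the most methylated CpG flanks of the 47 long runs, at 85.7%. The run of Robo2 (chr16:74411247-74413542) had 1 of 406, beside CpG flanks of 76.5%. The run of Spata5 (chr3:37317682-37319955) had the highest CHG level of the long runs, 1.65%, from 3 methylated of 182 reads, the fewest CHG reads of any (95% interval 0.341% to 4.74%). Over the 8 runs that held a placed start CHG was at 0.300% (0.155% to 0.524%), and over the other 39 at 0.377% (0.299% to 0.470%).

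CpG methylation rose slowly with distance from a long run. Inside, 141 of 15841 CpG reads were methylated (0.890%), near the 0.770% of short runs, both low by the rule. Within 1, 2, 5 and 10 kb the level was 31.4%, 38.3%, 45.3% and 50.9% around long runs and 41.1%, 49.1%, 61.5% and 68.7% around short runs. In the outermost shell, 5 to 10 kb away, it was 56.5% and 75.5%, against 79.0% over all autosomal sites. Sites inside any run of at least 8 CpG were left out of the flanks.

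The low flanks did not belong to all long runs. Flank levels per run went from 9.18% to 85.7% with a median of 52.3%, and in short runs from 4.28% to 94.3% with a median of 73.5%. They were under 50% in 19 of 47 long runs (40.4%), 58 of 306 runs of middle span (19.0%) and 98 of 763 short runs (12.8%). They were under 20% in 9 long runs (19.1%) and 19 short runs (2.49%). Those 9 comprised the 3 HoxD runs, the run on the right of Mef2c, and runs on chromosomes 6 (from 52116953, 9.18%), 11 (from 96184127, 12.1%), 12 (from 58648641, 13.7%), 13 (from 117087280, 17.1%) and 15 (from 102764480, 17.0%). The matching placed no gene start inside any of these 9, and no Hox gene within 500 kb of those outside HoxD. Whether the latter lie in other Hox clusters was therefore not determined.

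Many ends of long and short runs lay at gaps in the listing, and CpG of 10% to under 30% ended long runs more often. Of the 94 ends of long runs, 43 (45.7%) were set by a gap of over 1000 bases between listed CpG. In short runs such gaps set 858 of 1525 ends (56.3%), a larger share. The next listed CpG beyond the gap was again under 10% at 19 of the 94 long-run ends (20.21%). The same held at 198 of the 1525 short-run ends (12.98%). Another 34 ends of long runs (36.2%) met a CpG of 10% to under 30%, against 303 of 1525 ends of short runs (19.9%). A CpG of 30% to under 50% went the other way, at 2 long-run ends (2.13%) and 108 short-run ends (7.08%). A CpG of 50% or more ended 15 long-run ends (16.0%) and 256 short-run ends (16.8%). The span of a run is thus partly that of the listed sites.

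CHG methylation was lower inside the long runs than around them. Over 1060 CHG sites inside, 91 of 24926 reads were methylated, a level of 0.365% (95% exact Clopper-Pearson interval 0.294% to 0.448%). The flanks were at 0.517% within 1 kb, 0.619% within 2 kb, 0.669% within 5 kb and 0.730% within 10 kb (0.690% to 0.771%), and all autosomal CHG sites were at 0.784%. The inside level was 0.500 of the 10 kb flank level, and the difference was -0.364 percentage points (95% Newcombe interval -0.444 to -0.273). These intervals cover counting error only, since reads were not tagged by molecule and PCR copies may recur. Runs varied more than counting: chi-square over the 47 runs divided by its degrees of freedom was 2.10 inside and 5.95 in the flanks, so the intervals are too narrow. With gaps of at most 500 bases, that rule gave 2 long runs, whose CHG level inside was 1.09 of that in the flanks. The interval of that ratio, 0.439 to 2.24, covers levels below and above the flanks, so those 2 runs do not settle the direction.

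Long and short runs did not differ in CHG level inside beyond counting error. Short runs were at 0.361% (0.334% to 0.390%) inside, and at 0.614%, 0.681%, 0.731% and 0.751% within 1, 2, 5 and 10 kb. Long minus short was 0.0036 points inside (-0.070 to 0.091), -0.096 within 1 kb (-0.194 to 0.019), -0.062 within 2 kb (-0.143 to 0.029), -0.062 within 5 kb (-0.116 to -0.005) and -0.021 within 10 kb (-0.062 to 0.022). The interval at 5 kb alone left out 0, and by a margin smaller than the extra spread between runs. In the 10 kb flanks CHG around long runs was 0.972 of that around short runs, and CpG was 0.741.

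Inside the runs the level did not fall from the edge inwards. CHG was at 0.296% in the 250 bases at either end, 0.367% from 250 to 500 bases in, 0.430% from 500 to 1000 and 0.347% beyond 1000, and all 4 intervals overlapped. Mitochondrial CHG sites, taken as a gauge of failed conversion if mitochondrial DNA carries little methylation, were at 0.377% in this library. The inside of long runs minus that level was -0.012 points (-0.080 to 0.072), and that of short runs -0.015 (-0.043 to 0.015). Runs of middle span did not share this: at 0.436% they lay 0.059 points above it (0.019 to 0.102), so the 3 classes show no order by span.

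**Figure D2:**
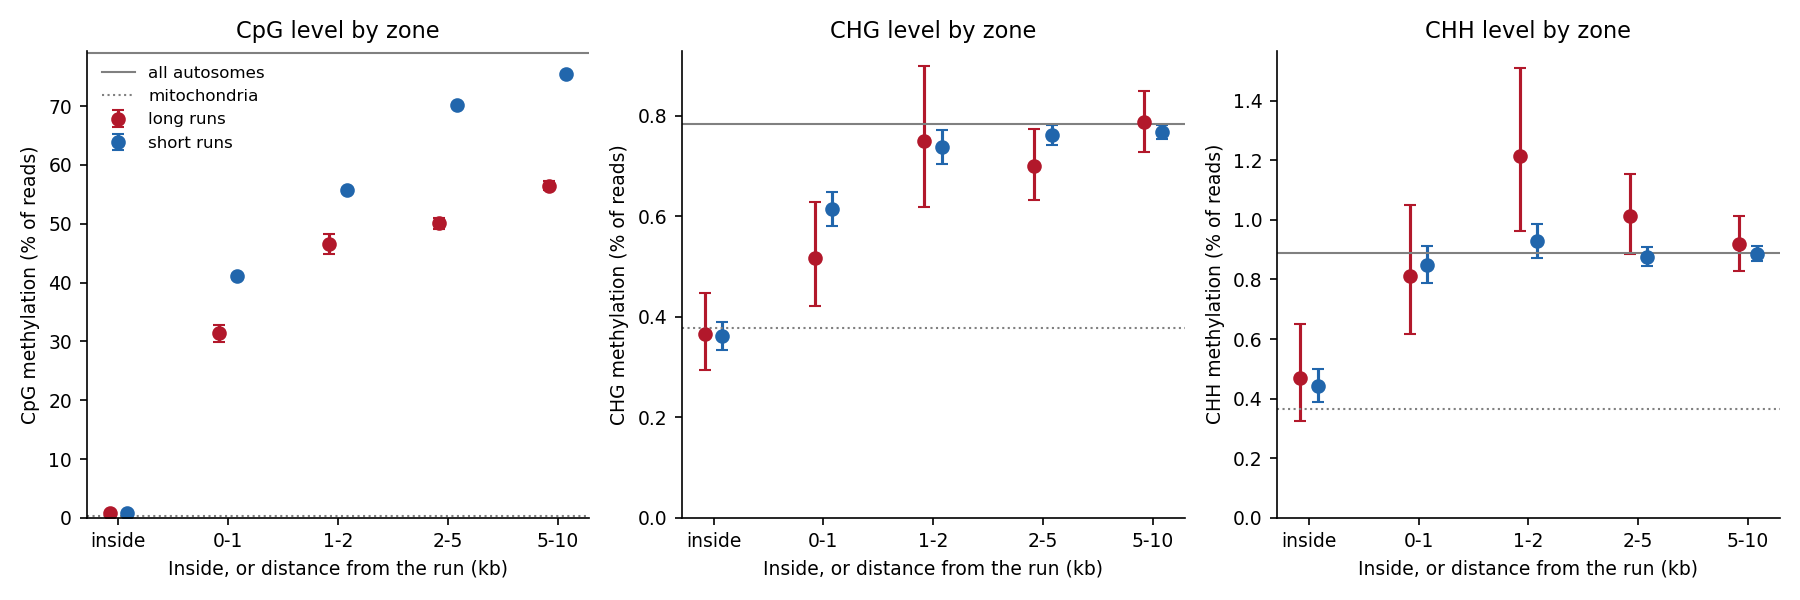
Methylation in percent of reads inside the runs and in shells of distance from them (kb), for CpG, CHG and CHH, in long (red) and short (blue) runs of replicate 2, with 95% exact intervals. The solid line is the level of all autosomal sites and the dotted line that of mitochondrial sites: inside both classes CHG lies near the dotted line, while CpG around long runs stays below that around short runs out to 10 kb.

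Few CHG sites carried the methylated reads. No methylated read was seen at 94.2% of the 1060 CHG sites inside long runs and at 90.2% of the 7064 in their 10 kb flanks. Sites at 10% or more numbered 8 inside (0.755%), 138 in the flanks (1.95%) and 40 of 7391 inside short runs (0.541%). Those 8 held 23 of the 91 methylated reads, and the other sites inside were at 0.275%. The 3 highest were 4 of 20 reads at position 35089230 of chromosome 17, 4 of 22 on chromosome 18 and 4 of 27 at position 93478981 of chromosome 8.

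Each run was then tested against its own 10 kb flanks. All 47 long runs had the 100 CHG reads inside and in the flanks that the test needed, and over runs of every span 1009 of 1116 did. In long runs, 1 of 47 passed at an adjusted p under 0.05 (2.13%; over all runs tested 0.694%, with 0.297% lower and 0.396% higher inside). At an unadjusted p under 0.05, 5 were lower inside (10.6%, against 6.05% of all runs) and 1 was higher (2.13%, against 3.47%). The level inside was below the flank in 36 of 47 long runs (76.6%), as in 77.9% of all runs tested, and no methylated CHG read was seen in 14 of 47 (29.8%, against 52.4%). The median number of CHG reads inside was 465 in long and 219 in short runs, so counts of 0 are not comparable between them. The share of long runs below their flanks was near that of runs in general.

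The run that passed (chr1:97562555-97564690, 2136 bases, 26 CpG) had 0 methylated of 924 CHG reads, which allows a level of up to 0.325%, against 1.23% in its flanks (Fisher's exact test, p = 6.1e-05, adjusted p = 0.010). The nearest genes placed were Fam174a and 1700063A18Rik, 352351 and 353644 bases away. Its flanks had the fifth highest CHG level of the 47, and their CpG level was 80.0%. Against 2 kb flanks 0 long runs passed, while 10 of 975 runs of every span did. Without this run CHG was at 0.379% inside the other 46 and 0.709% around them, with flank reads summed over runs. Summed so, the flanks of all 47 were at 0.725%.

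The run in the opposite direction that came nearest to passing lay on chromosome 17 (35087927 to 35089929), between Tnxb and Lsm2. It had 8 of 499 CHG reads methylated (1.60%, 0.695% to 3.13%) against 0.236% in its flanks, the lowest flank level of the 47 (Fisher's exact test, p = 0.00087, adjusted p = 0.073). Of these 8 reads, 4 were at 1 site, and none of its 201 CpG reads was methylated. The run on chromosome 8 (from 93478967) was also high, at 7 of 465 (1.51%), with 4 reads at 1 site, beside flanks of 0.937% (Fisher p = 0.221).

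Depth limited the single runs. The median long run had 465 CHG reads, at which a count of 0 allows up to 0.645%, while the median flank level was 0.610%. Of the 14 runs with a count of 0, 5 had a limit above their own flank level, so a lower level was not detectable there.

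**Figure D3:**
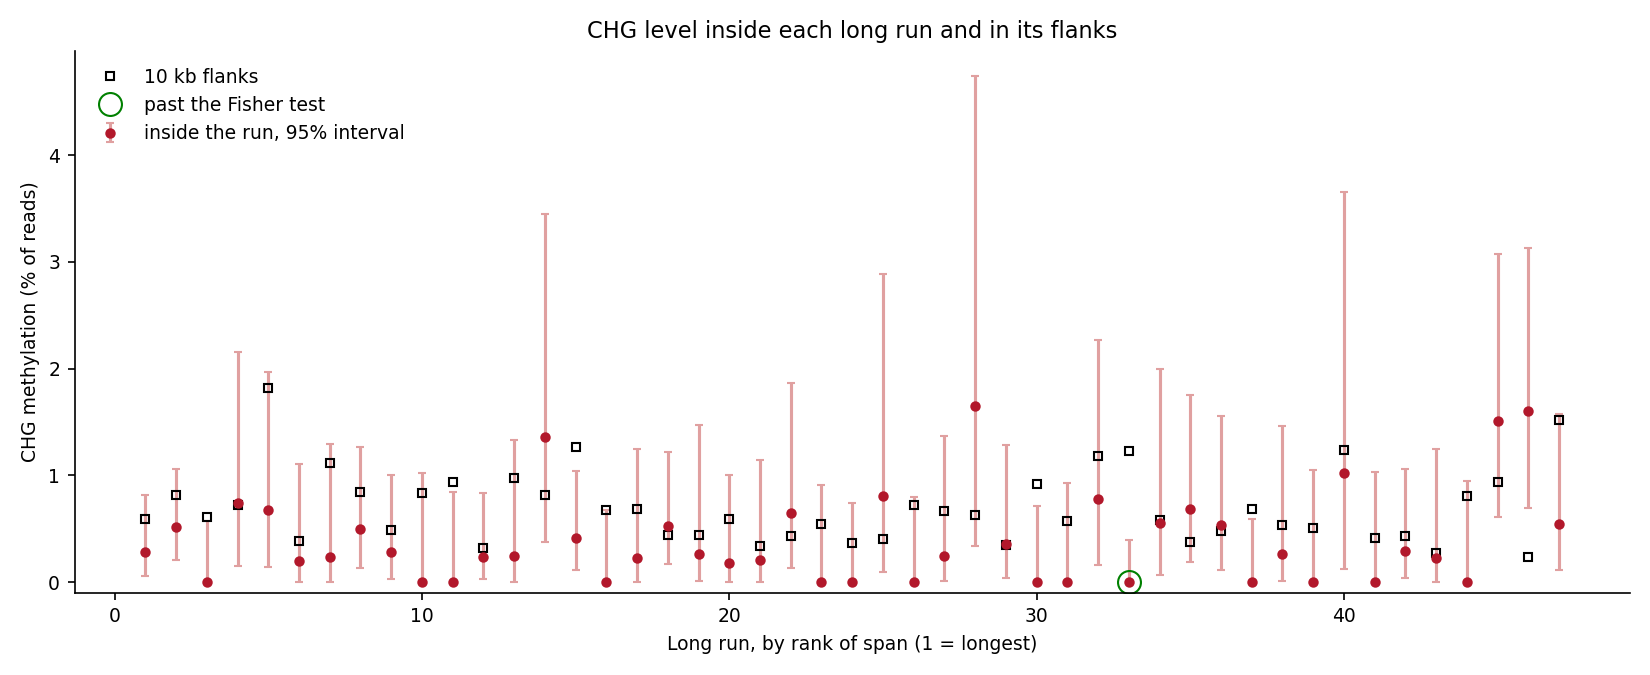
CHG methylation in percent of reads inside each of the 47 long runs (red points, 95% exact intervals) and in its 10 kb flanks (open squares), by rank of span from the longest (1) to the shortest (47). The green ring marks the 1 run past the Fisher test. Most intervals include the flank value, and runs 14, 28, 45 and 46 stand at 1.36%, 1.65%, 1.51% and 1.60%.

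CHH sites gave a coarser view, since the deposited table starts at 30 reads per site for CHH and only 26 long runs held a listed CHH site. Over 233 sites, 35 of 7475 reads were methylated inside, 0.468% (0.326% to 0.651%). The flanks were at 0.812%, 1.01%, 1.01% and 0.965% within 1, 2, 5 and 10 kb. The difference from the 10 kb flanks was -0.496 points (-0.646 to -0.302), a ratio of 0.485. Short runs were at 0.442% inside and 0.888% in their 10 kb flanks. Long minus short was 0.027 points inside (-0.117 to 0.216) and, in the flanks, -0.036 within 1 kb (-0.231 to 0.210), 0.116 within 2 kb (-0.045 to 0.302), 0.129 within 5 kb (0.028 to 0.241) and 0.077 within 10 kb (0.008 to 0.150). By shell it was 0.285 from 1 to 2 kb (0.040 to 0.584), 0.138 from 2 to 5 kb (0.010 to 0.281) and 0.031 from 5 to 10 kb (-0.059 to 0.130). With at least 15 CpG per run, which left 17 long runs, the inside difference turned to -0.344 points (-0.554 to -0.063). With at least 8 CpG, chi-square over its degrees of freedom was 2.41 for CHH inside long runs. The inside intervals are thus likely too narrow as well. The flank differences come with a spread of the runs' flanks beyond counting error, for which chi-square over its degrees of freedom was 7.45, so their intervals are too narrow. Mitochondrial CHH was at 0.366%.

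By run, 18 long runs could be tested for CHH and 1 passed (5.56%, against 6.20% of the 242 runs tested). It lay on chromosome 13 (29049644 to 29051974) and held the start of the predicted gene Gm46405. CHH reads there were methylated in 3 of 685 inside (0.438%) against 4.16% in the flanks (Fisher's exact test, adjusted p = 5.5e-05), the highest CHH flank of the 18. The same run had 0 of 462 CHG reads methylated against 0.720% (Fisher p = 0.102), and that CHG flank level was within the middle of the long runs' range.

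CHG and CpG in the flanks were only loosely related over the long runs. The 19 runs with CpG flanks under 50% had CHG at 0.427% inside and 0.679% in the flanks, and the other 28 had 0.323% and 0.749%. Flank reads were summed over runs here, and summed so the flanks of all 47 were at 0.725%. Spearman's rho between CpG and CHG levels of the flanks was 0.207 over the 47 runs, and that between CHG inside and in the flanks was 0.051. These are descriptions of runs of 1 library, in which depth and base composition are shared by neighbours.

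**Figure D4:**
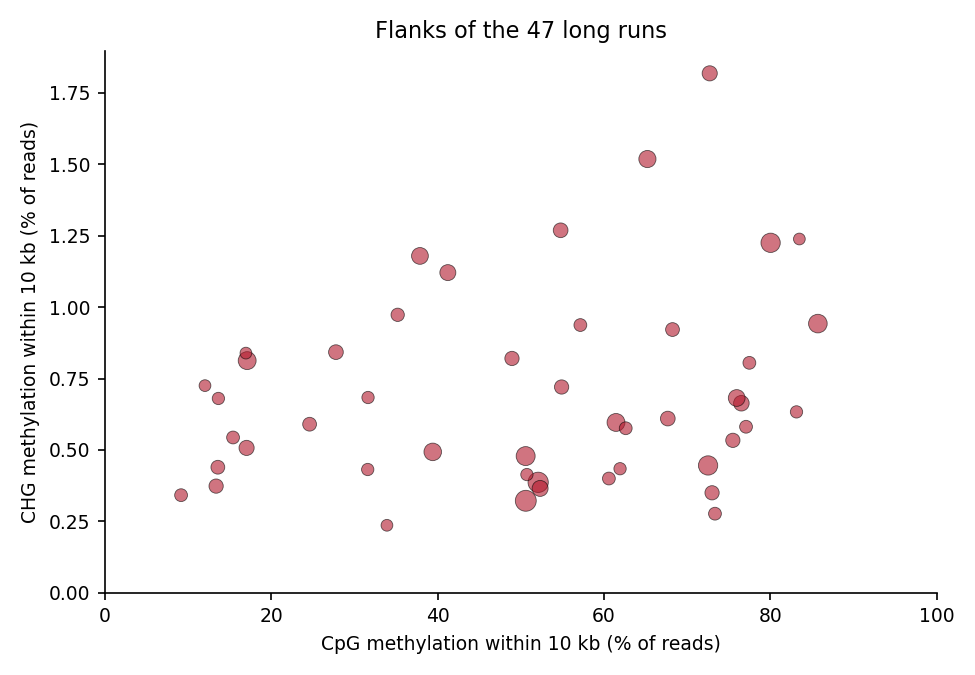
CpG against CHG methylation (percent of reads) in the 10 kb flanks of the 47 long runs, 1 point per run, with larger points for runs of more CpG. Runs with CpG flanks under 20% lay between 0.342% and 0.839% CHG, within the range of the others.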

How the data were processed

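Bismark 0.7.5 and build mm9 are named, per the submitters' processing notes. Per the labels' protocols, 3 µg of DNA with 0.5% unmethylated lambda DNA was sheared to about 300 bp. The authors deposited, for each library and context, 3 read counts for every cytosine (methylated, unmethylated and their total) of 1 strand class (OT, here read as the plus strand), and a deposited percent computed from those counts. Sites below 20 reads (30 for CHH in replicate 2) are not listed. Duplicate removal and trimming are not given in any source used. The lambda reads were not analysed here.

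The members and lists were chosen with earlier results of these data known. From the counts of replicate 2, runs were built as stated, levels were methylated reads over all reads, and intervals were exact Clopper-Pearson at 95%. Flanks left out sites inside any run. Autosomal sites of 20 to 100 reads entered. Mitochondrial sites entered at any listed depth, with a mean of 9129 reads per site for CHG and 8911 for CHH. The counts of the printed stretches also had no highest depth. Each run with at least 100 CHG reads inside and in both flanks together was tested with Fisher's exact test, two-sided. The p-values were adjusted by Benjamini-Hochberg over all runs tested, at 0.05. Such a test compares sites of 1 library, and its reads are not replicates. It was checked on simulated reads with the same flank level in every run and counting error only. That check does not cover the extra spread between runs, so it does not give the error rate here. A limit for a count of 0 is 3 reads over the total.

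Gene names were planned only for an mm9 annotation. The naming used was added after the data were seen. RefSeq promoters (GRCm38.p6, 250 bases before to 50 after a start) were placed where every listed cytosine had the context of the promoter's base. A promoter needed 14 listed cytosines alone, or 6 in each of a pair at the RefSeq spacing, and others joined at that spacing with 3. No coordinate was converted, and the planned gene lists were not used. The runs named were the 10 longest, those with at least 1000 CHG reads, those past the test, and the 3 on either side of the limit of 2000 bases. HoxD, histone, start-holding and low-flank runs, the runs without a methylated read, and the chromosome 17 run were chosen after their values were seen. Python 3.11.15, numpy 2.4.6, pandas 2.3.3, scipy 1.17.1 and matplotlib 3.10.9 were used.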

Additional observations from a re-analysis of the deposited data

How the results depend on the processing

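The number of long runs depended on the definition. It was 27 with CpG under 5%, 98 under 20%, 2 with gaps of at most 500 bases, 248 with gaps of 2000, 17 with at least 15 CpG, 8 with a span of at least 3000 bases and 0 with sites of at least 30 reads, where no level could be computed. CHG inside less the mitochondrial level was -0.012% and CHH 0.102%, giving shares of the flanks of -0.033 and 0.170. The CHG share of the flanks was 1.09 with gaps of 500 bases (0.439 to 2.24), 0.369 with 15 CpG and 0.706 against 1 kb flanks. For CHH inside, gaps of 500 bases gave 0.201% and 15 CpG gave 0.210%, and its share of the flanks was 0.301 and 0.212, and 0.696 with CpG under 5%. Long minus short was -0.149 points for CHG with 15 CpG (-0.297 to 0.006), and for CHH -0.239 with gaps of 500 bases (-0.396 to 0.292), -0.344 with 15 CpG (-0.554 to -0.063) and -0.139 with 200 bases left out at both ends (-0.406 to 0.120). Long runs past the test numbered 2 with CpG under 20% (17 of 1428 over all runs), 0 with gaps of 500 bases (5 of 779), 4 with gaps of 2000 (12 of 1213), 0 against 2 kb flanks (10 of 975) and 2 with CHG and CHH reads together (30 of 1020). It was also 0 at 3000 bases and at 30 reads. The called run spans 2136 bases with a gap of 572, so the rules of 3000 and 500 bases leave it out, and at 30 reads there was no long run to test. A one-sided binomial test against the mitochondrial CHG level called 1 long run, on chromosome 17 (adjusted p = 0.045), and 16 of 1009 over all runs. The cause of the other shifts was not tested.

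No paired analysis was possible because the series has 1 group and only replicate 2 lists sites in the runs. Leaving out a library was not run for the same reason.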
